A study of Mus musculus with 14 samples.

Results

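The AP-1 family transcription factors are described here through 9 genes: Fos, Fosb, Fosl1, Fosl2, Jun, Junb, Jund, Atf3 and Batf3. They form a named list, matched to the count table by NCBI Gene number and not by any measured value, and make up 9 of its 27179 genes. The list was chosen with earlier results of these data known. AP-1 is not a single protein but a dimer of basic leucine zipper proteins. FOS proteins pair with JUN proteins, JUN proteins can also pair with each other, and ATF3 and BATF3 are smaller relatives that join JUN partners. The dimers bind the TPA response element (TRE) and, for some pairs, the cAMP response element (CRE). Many AP-1 genes are immediate early genes: MAP kinases, serum response factor and CREB switch them on quickly after receptor signals or stress. Enzymatic dissociation of solid tissue is a known trigger as well. In T cells AP-1 works with NFAT after antigen receptor signals, and JUNB with BATF and IRF4 shapes activated regulatory T cells.

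The libraries held polyadenylated RNA of regulatory T cells (Tregs) sorted on the FoxP3-YFP reporter from spleen or from MC38 colon carcinoma grown in the flank (the tumor libraries, TIL), taken at endpoint. Mice of the strain B6.IL23RWT FoxP3Cre-YFP gave the WT groups, Spleen WT and TIL WT, with 4 libraries each. Mice of the strain B6.IL23RFlox FoxP3Cre-YFP, in which Il23r, the receptor gene for the cytokine IL-23, is floxed, gave the groups Spleen Flox and TIL Flox, with 3 libraries each. Every group carried the FoxP3Cre-YFP allele and a tumor, Cre is driven by the Foxp3 gene, and animal age is not in the labels used here. Nothing in the labels ties each replicate to its own mouse, and the p-values below therefore reflect the scatter among libraries, which may be technical.

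Total counts ran from 4859099 to 10333892 per library. Foxp3 was found at 98.2 CPM or more in every library, and Il2ra and Ctla4 were also present in all 14. CPM are counts scaled to a common library total after TMM adjustment, which corrects for RNA composition. Il23r counts went against the genotype labels: the libraries labelled TIL Flox held 17 and those labelled TIL WT held 2. Which exons Cre removes is not stated in the labels, so these counts do not check the deletion. Xist was lower and 4 Y-linked genes were higher in every Flox-labelled than in every WT-labelled library of the same tissue, so genotype and sex cannot be told apart. B and plasma cell markers summed to 457 to 2130 CPM in spleen libraries and to 49.5 to 310 CPM in tumor libraries. Of 9 tested markers of that list, 5 fell in tumor in WT and 9 in Flox. MC38 epithelial markers summed to at most 4.50 CPM in tumor libraries and to 3.75 to 28.0 CPM in spleen libraries. In bulk RNA, fewer cells of a type and less RNA per cell cannot be told apart.

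The windows before the start sites of 4 members are shown because these genes behaved differently between tissues: Fosl2 and Atf3 rose in tumor, whereas Fos and Jun did not pass that test. Each is the 250 bases before the RefSeq start on GRCm38.p6, read 5′ to 3′ on the gene's strand. Capitals mark TGACG, the opening bases of the CRE, or its reverse complement.

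Fosl2, chr5:32136222-32136471 (+ strand): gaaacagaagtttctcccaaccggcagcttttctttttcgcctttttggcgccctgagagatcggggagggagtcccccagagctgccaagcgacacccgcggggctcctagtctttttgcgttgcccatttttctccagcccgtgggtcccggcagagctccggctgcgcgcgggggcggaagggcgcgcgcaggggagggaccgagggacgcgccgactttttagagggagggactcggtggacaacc

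Atf3, chr1:191183334-191183583 (- strand): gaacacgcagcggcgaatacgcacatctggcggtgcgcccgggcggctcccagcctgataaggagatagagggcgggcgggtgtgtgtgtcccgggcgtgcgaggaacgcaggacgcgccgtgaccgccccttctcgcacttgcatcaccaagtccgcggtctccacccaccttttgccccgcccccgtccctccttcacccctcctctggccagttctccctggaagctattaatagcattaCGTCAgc

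Fos, chr12:85473640-85473889 (+ strand): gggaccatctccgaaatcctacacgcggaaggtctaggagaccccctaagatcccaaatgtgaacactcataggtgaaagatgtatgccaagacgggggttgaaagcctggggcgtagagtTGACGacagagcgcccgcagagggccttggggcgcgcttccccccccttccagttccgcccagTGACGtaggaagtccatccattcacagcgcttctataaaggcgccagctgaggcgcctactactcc

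Jun, chr4:95052223-95052472 (- strand): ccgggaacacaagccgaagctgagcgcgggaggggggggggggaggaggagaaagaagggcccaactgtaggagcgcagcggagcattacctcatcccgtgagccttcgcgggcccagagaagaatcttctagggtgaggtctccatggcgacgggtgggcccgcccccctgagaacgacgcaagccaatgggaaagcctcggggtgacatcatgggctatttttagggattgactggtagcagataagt

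The Fos window held TGACG at 129 to 125 and at 66 to 62 bases before the start, and the Atf3 window held its reverse complement at 7 to 3 bases before it. Neither the Fosl2 nor the Jun window held it. Of the other windows searched, Fosb and Junb each held 1 match and Jund and Batf3 none. TGACG was added after the sequences had been seen, and 17.75% of 32817 RefSeq promoter windows of this length held it on either strand. The TRE (TGANTCA), the full CRE (TGACGTCA) and the CArG box, the element read by serum response factor, were searched as fixed patterns. They were absent from all 8 member windows on both strands and present in 6.75%, 1.55% and 1.47% of all windows. Variant sites, such as tgacatca in the Jun window, and sites more than 250 bases before the start were not searched. Their absence here therefore does not show that a member lacks such elements. The motifs did not overlap one another in the member windows. Fosl1 is not in the promoter table.

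Between tissues, 2 of the 7 members with enough counts to be fitted rose in tumor Tregs in both genotypes: Fosl2, which encodes the FOS-related protein FRA2, and Atf3, a stress-induced partner of JUN proteins. In WT their log2 fold changes were 6.35 ± 0.79 and 5.75 ± 0.92 (tumor minus spleen, ± SE, n = 4 against 4). Atf3 was too low to fit within spleen and entered the tissue fits through its tumor counts, so its call was partly set by the filter. Fosl2 was also fitted within spleen. The same test called 3.9% of 10560 genes higher in tumor in WT, 412 genes, and 338 lower. In the Flox-labelled libraries it called 4.15% of 10760 genes higher, 447 genes, and 400 lower. Fos, the most abundant member per kilobase in the spleen, and Jun, its classical partner, were high in both tissues and were not called in either genotype. Calls are by edgeR's quasi-likelihood test with a Benjamini-Hochberg adjusted p under 0.05.

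**Figure D1:**
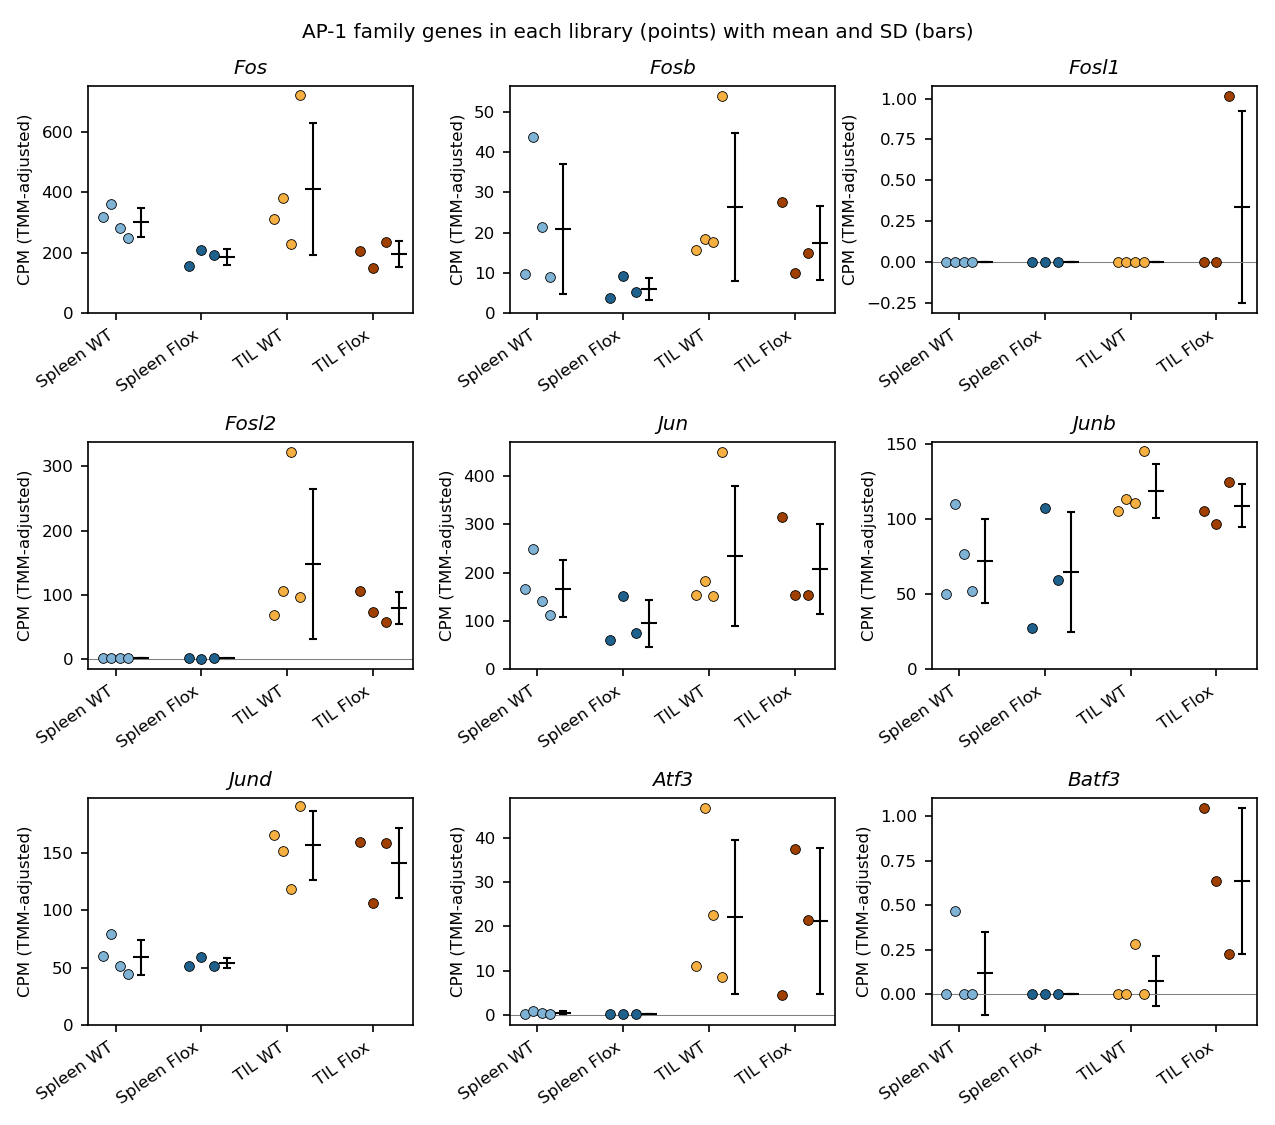
Each panel shows 1 AP-1 gene; points are single libraries of the 4 groups, horizontal ticks with bars are group mean and SD (n = 4 WT, n = 3 Flox), and the vertical axis is CPM over the TMM-adjusted total. Fosl2 and Atf3 sit near 0 in all 7 spleen libraries and far above it in tumor, while Fos and Jun are high in both tissues.

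The FOS group is described first. Fos, the founding member and a short-lived immediate early protein, was at 317, 360, 281 and 248 CPM in Spleen WT and at 313, 381, 228 and 723 CPM in TIL WT. In the Flox-labelled libraries it was at 156, 208 and 193 CPM in spleen and 204, 148 and 234 CPM in tumor. The tissues overlapped in both genotypes, and TIL WT 4 was the highest library. The tumor minus spleen difference of Fos was 0.44 ± 0.43 in WT (edgeR adjusted p = 0.546) and 0.09 ± 0.38 in Flox (edgeR adjusted p = 0.901). Its 95% limits ran from -0.54 to 1.42 in WT and from -0.82 to 1.00 in Flox. Over unadjusted totals, a setting added after the data were seen, the differences were -0.01 and -0.17, while the median of all genes moved from 0.05 to -0.39 in WT and from 0.04 to -0.22 in Flox.

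Fosb, whose product is induced like FOS and whose truncated form lacks the activating end, was far lower. Its values were 9.73, 43.7, 21.3 and 9.02 CPM in Spleen WT and 15.6, 18.5, 17.6 and 53.9 CPM in TIL WT. The WT tissues overlapped, with a difference of 0.32 ± 0.69 (edgeR adjusted p = 0.800). In the Flox-labelled libraries Fosb was at 3.71, 9.08 and 5.19 CPM in spleen and at 27.6, 9.82 and 14.9 CPM in tumor. All 3 tumor values lay above all 3 spleen values, by a narrow gap. The Flox difference was 1.56 ± 0.59 (edgeR adjusted p = 0.150), and over unadjusted totals the groups overlapped. DESeq2 called Fosb in Flox (adjusted p = 0.0227).

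Fosl2 was low in spleen and high in tumor. In Spleen WT it was at 1.23, 1.79, 1.87 and 2.44 CPM, and in TIL WT at 68.6, 106, 322 and 97.1 CPM. In Spleen Flox it was at 1.81, 0.746 and 1.59 CPM, and in TIL Flox at 106, 73.5 and 58.4 CPM. Every tumor library lay above every spleen library in each genotype, and TIL WT 3 stood above all others. The WT fold was 81.6 (edgeR adjusted p = 0.00522, 95% limits 4.57 to 8.13 on the log2 scale). The Flox fold was 57.0, or 5.83 ± 0.69 in log2 (edgeR adjusted p = 0.0164).

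Fosl1, which encodes FRA1, had no count in 13 libraries and 9 counts, 1.01 CPM, in TIL Flox 3. Its locus overlaps Ccdc85b in the annotation, so those counts cannot be assigned with certainty. Fosl1 was not fitted, and against a floor of 3 counts over the group the TIL Flox sum was at least 3.62-fold higher than TIL WT. A single library carried all of it, with an exact permutation p of 0.857 (2-sided).

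In the JUN group, Jun, the archetypal partner of FOS, was at 166, 249, 141 and 112 CPM in Spleen WT and at 153, 182, 152 and 451 CPM in TIL WT. The WT tissues overlapped and differed by 0.48 ± 0.52 (edgeR adjusted p = 0.585), or by -0.01 without TIL WT 4. In the Flox-labelled libraries Jun was at 59.4, 151 and 75.2 CPM in spleen and at 315, 153 and 153 CPM in tumor. Every tumor value lay above every spleen value there, but the gap between 151 and 153 CPM was small, and over unadjusted totals the groups overlapped. The difference was 1.15 ± 0.56 (edgeR adjusted p = 0.247).

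Junb, a JUN protein with roles in effector T cell programs, was at 50.1, 110, 76.8 and 51.7 CPM in Spleen WT and at 106, 114, 110 and 145 CPM in TIL WT. Spleen WT 2 reached the tumor range, so the groups overlapped, and the difference was 0.71 ± 0.47 (edgeR adjusted p = 0.365). In Flox, Junb was at 27.3, 107 and 59.5 CPM in spleen and at 105, 96.8 and 125 CPM in tumor. Those groups overlapped too, with a difference of 0.77 ± 0.60 (edgeR adjusted p = 0.448).

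Jund, the JUN gene that is usually expressed steadily and not induced, was at 60.4, 79.3, 51.6 and 44.4 CPM in Spleen WT and at 165, 152, 119 and 191 CPM in TIL WT. In Spleen Flox it was at 51.7, 59.3 and 51.6 CPM and in TIL Flox at 160, 106 and 159 CPM. All tumor libraries were above all spleen libraries, in both genotypes and also over unadjusted totals. The differences were 1.41 ± 0.45 in WT (edgeR adjusted p = 0.0893) and 1.40 ± 0.44 in Flox (edgeR adjusted p = 0.106), and neither passed. In Flox, DESeq2 called Jund (adjusted p = 0.0001455). In WT, Jund was called by DESeq2, by limma voom and by edgeR on all 14 libraries, and its adjusted p ran from 0.0001515 to 0.233 over all 17 alternatives.

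In the ATF and BATF group, Atf3 was almost silent in spleen. Spleen WT libraries held 1, 12, 3 and 1 counts, or 0.102, 0.936, 0.296 and 0.188 CPM, and each Spleen Flox library held 2 counts. In tumor it was at 11.1, 46.8, 22.5 and 8.46 CPM in WT and at 4.49, 37.6 and 21.4 CPM in Flox. Tumor and spleen did not overlap, although the tumor libraries of a group differed by 5.53-fold in WT and 8.38-fold in Flox. The log2 differences, 5.75 ± 0.92 in WT (edgeR adjusted p = 0.0108) and 6.63 ± 0.99 in Flox (edgeR adjusted p = 0.0216), rest on 17 and 6 spleen counts.

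Batf3, a BATF family factor best known from cross-presenting dendritic cells, was near the limit of detection. It had 6 counts in Spleen WT 2, none in the other spleen libraries, 2 in TIL WT 3, and 10, 5 and 2 in the TIL Flox libraries. All 3 TIL Flox libraries held Batf3 and no Spleen Flox library did. The TIL Flox sum was at least 5.40-fold higher than Spleen Flox against a floor of 3 counts over the group, with an exact permutation p of 0.1, the smallest that 3 against 3 can give. Against TIL WT the ratio of counts was 10.3 (95% interval 2.44 to 91.6, counting error only), with an exact permutation p of 0.114. The dendritic cell markers summed to 6.16 to 10.1 CPM in TIL Flox and to 6.62 to 28.0 CPM in TIL WT, with Clec9a and Siglech at or near 0 in every group. Zbtb46 made up most of the sum in TIL Flox, at 3.97 to 7.88 CPM, and was called higher there than in Spleen Flox, at 0.249 to 0.401 CPM. In TIL WT, where Batf3 had 2 counts, Zbtb46 was at a like level, 5.07 to 8.61 CPM. Xcr1, another marker of that list, was at 0.323 to 22.1 CPM in TIL WT and 0.225 to 1.36 CPM in TIL Flox. The part of other cells in the Batf3 counts was not tested.

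The calls of Fosl2 and Atf3 in WT were kept under all 17 alternatives, with adjusted p up to 0.0351 and 0.0408. Their sizes depended on single libraries: Fosl2 was 5.61 on the log2 scale without TIL WT 3, and Atf3 was 5.10 without TIL WT 2 and 6.72 without Spleen WT 2. In Flox they were less secure. Leaving out Spleen Flox 1, 2 or 3 raised the edgeR adjusted p of Fosl2 to 0.0661, 0.0574 and 0.0572 and that of Atf3 to 0.0747, 0.0685 and 0.0714. Leaving out TIL Flox 3 raised that of Atf3 to 0.0557. The sizes stayed between 5.51 and 7.13 on the log2 scale across these omissions.

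**Figure D2:**
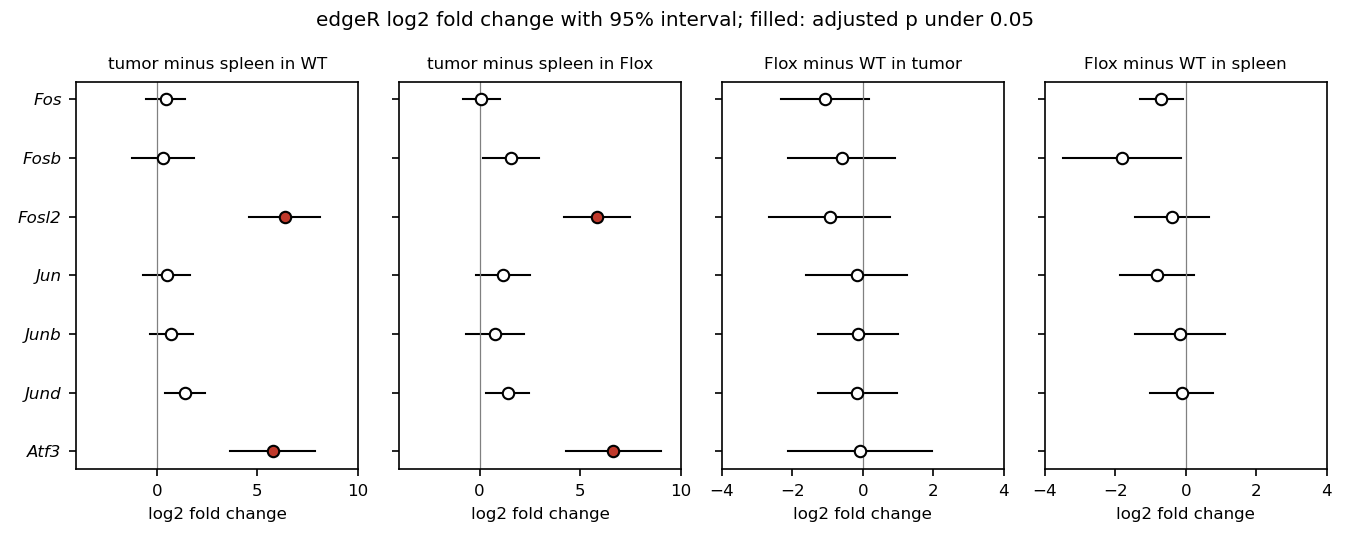
Log2 fold changes of the fitted members from edgeR (points) with 95% limits (lines) in 4 comparisons; filled points have an adjusted p under 0.05, and the left and right pairs of panels have different horizontal scales. Only Fosl2 and Atf3 are filled, in both tissue comparisons; no point is filled for Flox minus WT, and Atf3 was not fitted in spleen.

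Counted over the fitted members, groups did not overlap for 3 of 7 in WT (Fosl2, Jund, Atf3), against 9.6% of all tested genes that were non-overlapping and higher. In Flox this was 5 of 7 (Fosb, Fosl2, Jun, Jund, Atf3), against 16.9% of tested genes. Over unadjusted totals it was 3 of 7, and the share of all genes was not counted at that scaling. Atf3 was too low to fit within spleen and entered the tissue fits through its tumor counts. Its rise and separation were thus partly set by the filter and add little to these counts. Fosl1 and Batf3 were not fitted and are not among the 7. All 7 differences were positive in both genotypes with the TMM adjustment, as were 51.5% of all tested genes in WT and 51.4% in Flox. Over unadjusted totals 5 of 7 were positive in WT, where Fos and Fosb turned, and 6 of 7 in Flox, where Fos turned. That scaling also changed the split of all calls, to 282 higher and 614 lower in WT and to 347 higher and 489 lower in Flox.

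Levels of different members were compared only per kilobase of exon. In Spleen WT the order was Fos (128 ± 20.4 CPM per kb), Jun (52.3 ± 18.4), Jund (35.3 ± 9.04) and Junb (31.4 ± 12.2). Fos stood clear of Jun there, while Jun, Jund and Junb overlapped their neighbours. Fosb followed at 3.35 CPM per kb, and Fosl2 (0.190), Atf3 (0.177) and Batf3 (0.0733) came next with overlapping ranges, and Fosl1 was last at 0. Spleen Flox had Fos (78.8 ± 11.4 CPM per kb) ahead of Jund, Jun and Junb, which overlapped at 32.5, 29.8 and 28.1. In TIL WT Fos was first at 175 ± 92.4 CPM per kb, but its range overlapped that of Jund (94.0 ± 18.0). In TIL Flox Jund (84.9 ± 18.3 CPM per kb) and Fos (83.2 ± 18.5) could not be ordered. Fosl2 (15.3 and 8.21 CPM per kb) and Atf3 (10.3 and 9.83) lay between Junb and Fosb by their means in both tumor groups. The ranges of Atf3 and Fosb overlapped in both, and those of Fosl2 and Fosb overlapped in TIL WT.

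The make-up of the family is given as each member's share of the summed CPM per kb of all 9, which the scaling of a library cannot move. Fos and Jun together made up 69.1 to 75.8% in Spleen WT and 46.5 to 69.2% in TIL WT. In Flox they made up 61.8 to 66.0% in spleen and 45.5 to 53.8% in tumor. The upper end in TIL WT was TIL WT 4, which reached just into the spleen range, and the Flox tissues did not overlap. The share of Jund was 13.4 to 14.7% in Spleen WT and 17.6 to 29.1% in TIL WT, and 16.2 to 24.1% in Spleen Flox and 26.1 to 30.1% in TIL Flox. Fosl2 was at most 0.145% of the family in any spleen library and between 1.55 and 10.7% in the tumor libraries. These shares were not tested.

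**Figure D3:**
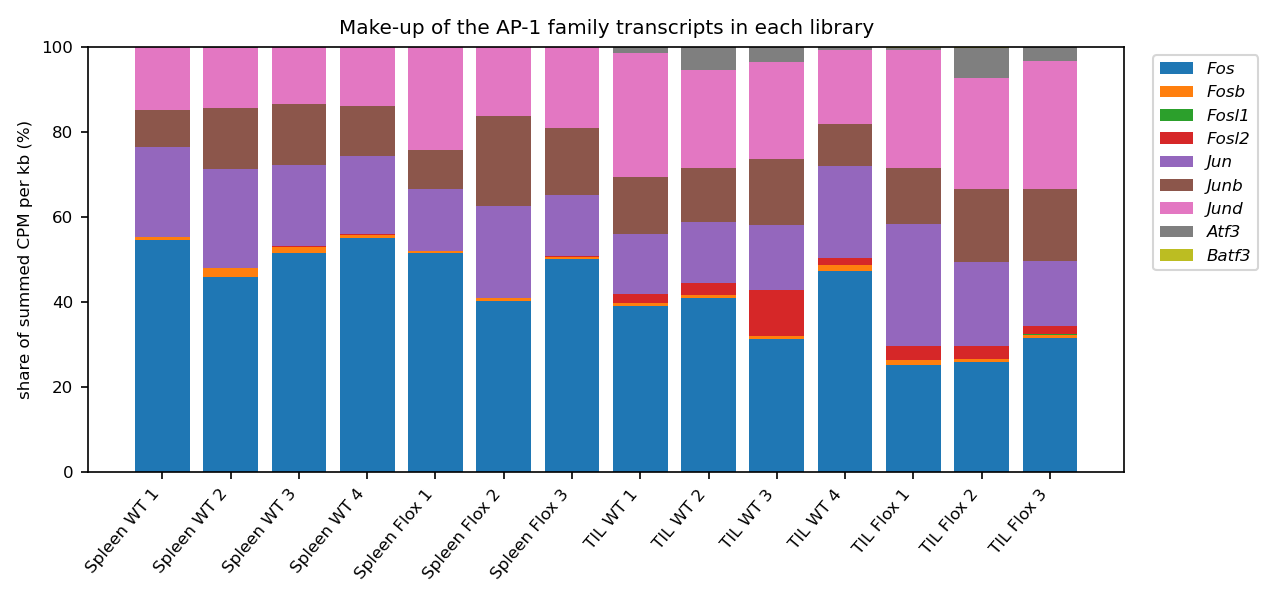
Stacked bars give each member's share (%) of the summed CPM per kb of the 9 genes in each of the 14 libraries. Fos (bottom) is 40.3 to 55.1% in spleen and 25.2 to 47.4% in tumor, while Fosl2 and Atf3 are visible only in the tumor bars.

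Between genotypes within a tissue, the comparison named in the series design, no member was called. In tumor, edgeR called 0 of 10777 genes (0%), and 8.08% had an unadjusted p under 0.05; none of the 7 fitted members was among these. DESeq2 called 266 genes and limma voom 1, and neither called a member. The estimates of all 7 members were below 0 (Flox minus WT), and 46.8% of all tested genes were above 0. Fos had the lowest estimate, -1.07 ± 0.54 (edgeR adjusted p = 0.584, 95% limits -2.32 to 0.18). Its TIL Flox values of 148 to 234 CPM met the TIL WT range only at TIL WT 3, with 228 CPM, and did not overlap it over unadjusted totals. Fosl2 was at -0.94 ± 0.74 and Fosb at -0.60 ± 0.65, while Jun, Jund, Junb and Atf3 lay between -0.18 and -0.09. Without TIL WT 4 the estimate of Fosb was 0.0011 and that of Jun 0.34, and without TIL WT 2 that of Atf3 was 0.57. For Junb and Jund the 95% limits ran from -1.28 to 0.99 at the widest.

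In spleen, edgeR again called 0 of 10935 genes (0%); DESeq2 called 124 and limma voom 0, with no member among them. Fos (156, 208 and 193 CPM against 317, 360, 281 and 248) was lower in every Flox-labelled library, whereas 3.13% of tested genes were non-overlapping and lower. Its difference was -0.70 ± 0.26 (edgeR adjusted p = 0.674). Fosb differed by -1.81 ± 0.72 (edgeR adjusted p = 0.674), with groups that touched at 9.08 and 9.02 CPM. Over unadjusted totals the Fosb groups did not overlap, at 4.14 to 9.32 CPM in Spleen Flox and 9.88 to 54.9 CPM in Spleen WT. Fos and Fosb were the 2 of 6 fitted members with an unadjusted p under 0.05 and a lower value, against 2.61% of all tested genes. Neither passed adjustment. Jun was at -0.81 ± 0.46, Fosl2 at -0.39 ± 0.46, Junb at -0.16 ± 0.56 and Jund at -0.12 ± 0.39. Atf3, too low to fit, had 6 counts in Spleen Flox and 17 in Spleen WT, a ratio of 0.423 (95% interval 0.137 to 1.13) with an exact permutation p of 0.686. B and plasma cell markers summed to 457 to 597 CPM in Spleen Flox and 763 to 2130 CPM in Spleen WT, and their part in the Fos and Fosb values was not tested.

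Whether the genotype difference itself differed between tissues was tested over all 14 libraries. edgeR called 0 of 12008 genes (0%), with 10.8% at an unadjusted p under 0.05 and no member among those. DESeq2 called 153 and limma voom 0, and again no member. The largest estimates were those of Fosb (1.20 ± 0.97, edgeR adjusted p = 0.680) and Atf3 (0.85 ± 1.19, edgeR adjusted p = 0.846), and the 95% limits of all 7 members included 0. The 4 comparisons within tissues and within genotypes share libraries in pairs, so they are given side by side and not as separate evidence.

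Likeness between members was described across the 14 libraries on the log2(CPM + 1) scale. Among the 21 pairs of the 7 fitted members, Pearson's r was highest, at 0.91 for Fosl2 with Atf3, 0.91 for Fosb with Jun and 0.89 for Fosl2 with Jund. It was 0.83 for Jund with Atf3, 0.74 for Fos with Fosb, 0.69 for Fos with Jun and 0.18 for Fos with Fosl2. The points share 2 tissues, library depth and sorting, and the pairs of Fosl2 with Atf3 and with Jund follow the tissue. Among the tumor libraries, TIL WT 3 had the most Fosl2 and TIL WT 2 the most Atf3.

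**Figure D4:**
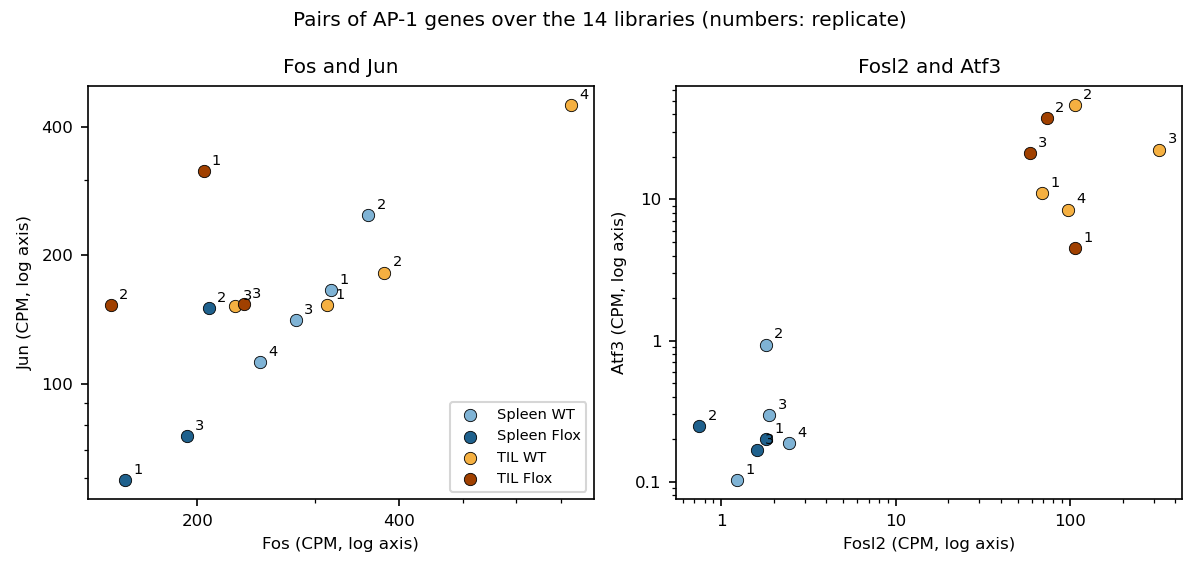
Each point is a library, with its replicate number; both axes are CPM on a log scale, and colors give the 4 groups. Fos and Jun vary together across tissues (r = 0.69 on log2(CPM + 1)) with TIL WT 4 at the top, while Fosl2 and Atf3 form a spleen cloud and a tumor cloud (r = 0.91).

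The genes most like the leading member of each group, among 12008 genes over the 14 libraries, were as follows. For Fos they were Dnajb1, an HSP40 co-chaperone (r = 0.93), H2az1 (0.87) and Kdm4b (0.84). For Jun they were Eif1 (0.86), Rnasek (0.85) and Pafah1b3 (0.84). For Atf3 they were Ppp1r3b (0.97), the actin-bundling gene Fscn1 (0.96) and Adam9 (0.96). Ppp1r3b, as an example of the Atf3 pattern, was at 0.752 to 3.36 CPM in Spleen WT and at 18.4 to 156 CPM in TIL WT.

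Genes around the family were read from 6 lists of 96 genes. Counts of rising genes in these lists stand beside 3.9% of all tested genes called higher in WT and 4.15% in Flox. Of the relatives and partners, 3 of 11 tested genes rose in tumor in WT and 2 in Flox, with list medians of 0.89 and 0.10. Maff encodes a small MAF protein and Jdp2 a relative of AP-1 that dampens it. Maff rose by 2.58 ± 0.54 in WT (edgeR adjusted p = 0.0261) and 3.04 ± 0.55 in Flox (edgeR adjusted p = 0.0279). Mafg, another small MAF gene, rose by 2.67 ± 0.58 in WT and was not called in Flox (edgeR adjusted p = 0.0884), and the third, Mafk, was not called in either. Jdp2 rose by 2.97 ± 0.72 in WT and 3.83 ± 0.86 in Flox. The tested members themselves had medians of 0.71 and 1.40, beside 0.05 and 0.04 over all tested genes.

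Of 18 MAP kinase and SRF pathway genes, 1 rose in each genotype and none fell, a share near the 3.9% and 4.15% of all tested genes called higher. It was Map2k3, the kinase that activates p38, with differences of 2.41 ± 0.56 in WT (edgeR adjusted p = 0.0376) and 1.96 ± 0.37 in Flox (edgeR adjusted p = 0.0308). The list medians were 0.24 and -0.17. Among 11 inhibitors of the pathway, 3 rose in WT and 2 in Flox, with medians of 0.46 and 0.58. Dusp5, a nuclear ERK phosphatase, rose by 2.94 ± 0.41 in WT and by 3.30 ± 0.52 in Flox. Dusp4, its relative, rose by 3.73 ± 0.66 in WT, and Spry2, an inhibitor of receptor signalling to ERK, rose by 3.39 ± 0.84 in WT and was called in Flox. Over unadjusted totals Maff, Dusp4 and Dusp5 were the genes of these 3 lists still called in WT, and Maff, Map2k3, Dusp5 and Spry2 in Flox.

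Of the AP-1 target genes, 5 of 14 tested rose in WT and 6 of 14 in Flox, with medians of 2.61 and 2.78. Over all tested genes 3.9% and 4.15% were called higher. The chemokine genes Ccl3 and Ccl4 rose by 5.97 ± 0.56 and 6.20 ± 0.72 in WT and by 6.995 ± 0.53 and 7.15 ± 0.86 in Flox. Areg, the growth factor of tissue-repair Tregs, rose by 6.08 ± 0.75 in WT and 6.45 ± 0.61 in Flox. Ccl3, at most 0.390 CPM in any spleen library, entered these fits through its tumor counts, as Atf3 did. Its rise was thus partly set by the filter and adds little to the counts and medians of the list. The same may hold for Ccl4 and Areg, at most 1.56 and 1.88 CPM in spleen. Ccr8, a receptor of tumor Tregs, rose by 3.63 ± 0.47 in WT, and Vim, an intermediate filament gene, by 2.70 ± 0.39 in Flox. Vim was also called in WT, at 446 to 817 CPM in tumor and 55.7 to 126 CPM in spleen. In Flox, Ccr8 was at 37.4 to 48.6 CPM in tumor and 0.871 to 6.87 CPM in spleen. Targets were listed from general knowledge of AP-1, but with earlier results of these data known, and no binding was measured. Their counts and medians are a description and not independent evidence on AP-1 targets. Over unadjusted totals the same counts of targets rose, 5 and 6.

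Other immediate early genes and heat shock genes, which are known to respond to tissue handling, were counted as well. Of 21 other immediate early genes tested, 6 rose and 1 fell in WT, and 3 rose in Flox, with medians of 0.91 and 0.44. Klf6 rose by 1.62 ± 0.33 in WT and 1.77 ± 0.34 in Flox, and Nfkbia, the NF-kB inhibitor, by 1.83 ± 0.39 and 1.87 ± 0.37. Nr4a2 rose by 2.63 ± 0.55 in WT, and Myc fell by 2.35 on the log2 scale (SE 0.50). Ier3 was also called in Flox, where it was at 0 to 0.0837 CPM in spleen and 3.32 to 23.3 CPM in tumor. Summed over 23 genes, this list was at 6024 to 7256 CPM in Spleen WT and 9648 to 13285 CPM in TIL WT, and the WT tissues did not overlap. Btg1 alone was at 3624 to 5285 CPM in Spleen WT and 6505 to 9352 CPM in TIL WT, so that this gene carried most of the sum. In Flox the list was at 5416 to 7149 CPM in spleen and 5904 to 10362 CPM in tumor, with overlap.

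Of 12 heat shock genes, 1 rose in each genotype, beside 3.9% and 4.15% of all tested genes called higher. It was Dnaja1, by 1.47 ± 0.37 in WT and 1.13 ± 0.22 in Flox. The summed list was at 4245 to 5645 CPM in Spleen WT and 6070 to 10453 CPM in TIL WT, and at 4160 to 4177 and 4988 to 7910 CPM in Flox. Hsp90ab1 alone was at 2262 to 3180 CPM in Spleen WT and 2634 to 4370 CPM in TIL WT, a large part of the sum. All 12 estimates were above 0 in WT with the TMM adjustment, and 7 of 12 over unadjusted totals. In Flox 8 of 12 were above 0 in both settings, and Hspa8 was lower in every tumor library. Over unadjusted totals Nr4a2, Ier3 and Myc were the other immediate early genes still called in WT, and no heat shock gene was, while the Flox calls of both lists were the same genes. Library by library, TIL WT 3, with the most Fosl2, had the lowest sums of TIL WT for both lists (9648 and 6070 CPM). TIL WT 1, with the least Fosl2 of TIL WT, had the highest (13285 and 10453 CPM). TIL Flox 1, with the most Fosl2 in Flox (106 CPM), had an immediate early sum of 5904 CPM, below Spleen Flox 2 and 3. Btg1 alone was at 3390 to 6123 CPM in TIL Flox, so the sum mostly follows that gene. Jun (315 CPM) and Fosb (27.6 CPM), which are not in the sum, were highest of TIL Flox in TIL Flox 1, and Fos (204 CPM) was not. The same library held the least Atf3 of TIL Flox (4.49 CPM) and the lowest sums of that group for both lists (5904 and 4988 CPM). TIL Flox 2, with the most Atf3 in Flox (37.6 CPM), had sums of 7692 and 5956.5 CPM. In WT, TIL WT 2 held the most Atf3 (46.8 CPM), with sums of 10492 and 6835 CPM. TIL WT 4 held the least (8.46 CPM), with sums of 12101 and 7454 CPM. The part of tissue digestion in the change of Fosl2 and Atf3 was not tested.

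Markers of other cells also differed between the tissues in which Fosl2 and Atf3 did, and their part in that change was not tested. Macrophage and monocyte markers summed to 14.8 to 168 CPM in TIL WT and 18.1 to 250 CPM in Spleen WT, and edgeR called 0 of 8 tested in WT. At an unadjusted edgeR p under 0.05 were 5 of the 8, 3 higher and 2 lower in tumor, beside 26.8% of all tested genes. DESeq2 called 3 of these markers higher and 1 lower in tumor, and limma voom 0. In Flox they summed to 46.4 to 86.2 CPM in tumor and 7.59 to 47.2 CPM in spleen, and 1 of 7 tested was called, Cd68, at 15.98 to 32.1 CPM in tumor and 0.124 to 1.10 CPM in spleen. Fibroblast and endothelial markers summed to 68.3 to 295 CPM in TIL WT and 55.0 to 164 CPM in Spleen WT, and to 37.1 to 126 and 85.8 to 110 CPM in Flox. Pecam1, at 54.4 to 164 CPM in Spleen WT, made up nearly all of the sum in spleen. The fibroblast genes Col3a1 and Dcn were called higher in tumor in both genotypes, and Col1a2 in Flox. Col3a1 was at 0 to 0.395 CPM in Spleen WT and 5.59 to 93.2 CPM in TIL WT, and at 0 to 0.702 and 7.02 to 51.5 CPM in Flox. CD8 T and NK cell markers summed to 75.9 to 119 CPM in TIL WT and 10.8 to 26.7 CPM in Spleen WT. Nkg7, a cytotoxic granule gene, made up nearly all of the tumor sum, at 70.8 to 116 CPM, and was the only marker of that list called, in both genotypes. Cd8a was at most 0.646 CPM in TIL WT, and Klrb1c was at 0 in every tumor library.

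In the genotype comparisons edgeR called 0 of 89 tested genes of these 6 lists in tumor and 0 of 84 in spleen. At an unadjusted edgeR p under 0.05 were 5 and 3, beside 8.08% and 6.86% of all tested genes. DESeq2 called 1, Mapk8, lower in TIL Flox and none in spleen, and limma voom called 0 in both.

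**Figure D5:**
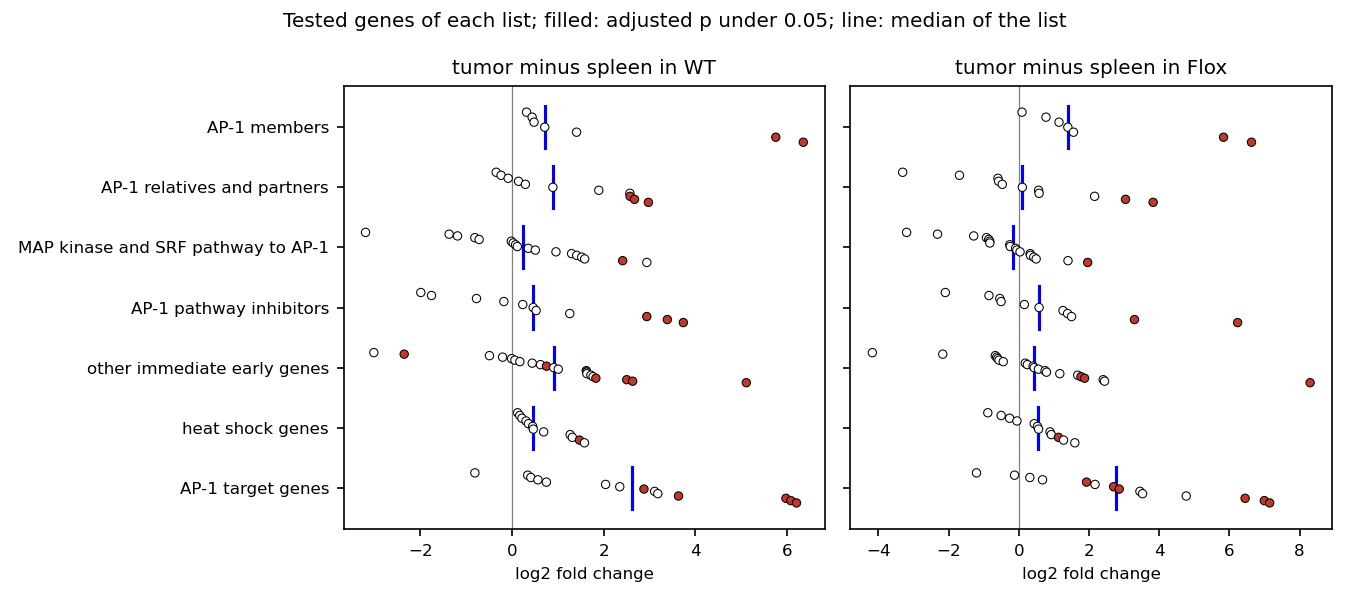
Each point is a tested gene of a list, placed by its edgeR log2 fold change (tumor minus spleen) in WT (left) and Flox (right); filled points have an adjusted p under 0.05 and blue lines are list medians. AP-1 members have medians of 0.71 and 1.40, with Fosl2 and Atf3 far to the right, and AP-1 targets have medians of 2.61 and 2.78. Genes near 0 in spleen, such as Atf3, Ccl3 and Ier3, entered these fits through their tumor counts.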

How the data were processed

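The authors deposited raw read counts per gene, not normalized, for 27179 genes in 14 libraries. Per the submitters' processing notes the build is mm10, and no aligner, counter or strand setting is named there or in the labels. Reads of overlapping genes could not be separated. Gene numbers were matched to RefSeq GRCm38.p6 symbols (25275) and to GENCODE M21 (18), and 1886 stayed unnamed. Per the labels' protocols, extraction used the RNeasy Plus micro kit (Qiagen) and GeneWiz made ultra-low input libraries.

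Counts were tested with edgeR 4.0.16 (R 4.3.3): TMM, filterByExpr by group, quasi-likelihood F test, Benjamini-Hochberg adjustment over all genes tested, threshold 0.05. Each fit used only its own libraries, and all 14 for the difference of contrasts. SE is the absolute log2 fold change over the square root of F. Alternatives used DESeq2 1.42.0, limma 3.58.1 (voom with sample quality weights), other scalings and filters, a replicate block and omitted libraries. Unadjusted totals were added after seeing the data. Members that failed the filter were given as counts with a 2-sided exact permutation test (scipy 1.17.1, smallest p 0.0571 for 3 against 4 libraries). Code was tested on simulated data. CPM per kb used GENCODE exon lengths. The members, lists and tests were chosen with earlier results of these data known. Other genes named are up to 4 per list and comparison with the smallest p, passing genes first, and the 3 genes most correlated with the leading member of each group. Intervals of count ratios are exact at 95% and cover counting error only. A floor of 3 counts in 1 library was 0.290 to 0.617 CPM of unadjusted totals.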

Additional observations from a re-analysis of the deposited data

Results flagged for a closer look

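Within the 4 WT libraries of a tissue, some members had 1 library far from the others. Such a gap arises by chance in about 5% of groups, and the values are not independent, since Fosb and Jun vary alike. TIL WT 4 held 53.9 CPM of Fosb, beside 15.6 to 18.5 CPM in the other TIL WT libraries, and 451 CPM of Jun, beside 152 to 182 CPM. The same library held the highest Fos value, 723 CPM, which did not meet the limit. Fosl2 reached 322 CPM in TIL WT 3, beside 68.6 to 106 CPM in the rest of the group. Batf3 was found in Spleen WT 2 alone of its group, at 0.468 CPM, which is 6 counts; with 0 in the other libraries this gap is fixed by the zeros.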

How the results depend on the processing

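Fosl2 and Atf3 stayed called in WT tumor against spleen under every alternative. In Flox, 2 members were called, but 4 by DESeq2 (also Fosb and Jund), 1 when genes needed 5 CPM in 3 or more libraries (Fosl2, as Atf3 was not tested there) and 0 with the replicate block, and 0 to 2 when 1 library was left out. With the replicate block the adjusted p was 0.0725 for Fosl2 and 0.0744 for Atf3. Deviations of same-numbered libraries from their group means had r from -0.03 to 0.05 over 13 pairs, some of them of WT with Flox. Such values cannot show whether same-numbered spleen and tumor libraries came from 1 mouse. Both WT replicate 2 libraries hold Y-linked reads, and whether the numbers pair samples stayed unsettled. The main fits did not pair libraries. No member was called between genotypes under any alternative.

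Counts over all genes moved more. DESeq2 called 2430 and 2910 genes between tissues in WT and Flox, the block 173 and 1, edgeR without a filter 513 and 457, and all 14 libraries in 1 fit 1514 and 1017. Omitting 1 library gave 373 to 658 in WT and 0 to 472 in Flox.

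Small estimates changed sign. In tumor (Flox minus WT) Jun was 0.24 with the block, and omissions gave -0.60 to 0.34 for Jun, -1.09 to 0.0011 for Fosb and -0.84 to 0.57 for Atf3. In spleen omissions gave -0.72 to 0.20 for Junb and -0.23 to 0.039 for Jund. Between tissues, unadjusted totals gave -0.011 for Fos and -0.17 for Fosb in WT and -0.17 for Fos in Flox. Omissions there gave -0.26 to 0.97 for Fosb and -0.011 to 0.74 for Jun in WT, and -0.048 to 0.28 for Fos in Flox. The difference of contrasts for Jund was 0.032 with the 5 CPM filter and 0.19 over unadjusted totals, and for Junb -0.27 without both WT replicate 2 libraries, which hold Y-linked reads. Its omissions gave -0.57 to 0.051 for Fos, -0.80 to 0.21 for Fosl2, -0.33 to 0.61 for Junb, -0.19 to 0.13 for Jund and -0.10 to 1.52 for Atf3. The cause was not tested. Depth limits Fosl1, Batf3 and splenic Atf3, which held 0 to 17 counts in a group.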
